A study of Homo sapiens with 14 samples.

Results

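The pregnancy-specific glycoprotein (PSG) genes were followed through poly(A)-selected RNA-Seq of IMR90 cells, which are primary human fetal lung fibroblasts. The 10 members, PSG1 to PSG9 and PSG11, were taken by symbol and were listed in all 3 kinds of deposited table, among 25299 genes that these tables share. I79 and I10 are the names of 2 isolates of these cells. Young cells of each isolate were proliferating and old cells had been passaged until they stopped dividing (replicative senescence). I79 cells were in addition treated with inflachromene (ICM), a compound whose targets are HMGB1 and HMGB2, proteins of chromatin. Wild type cells (WT) and cells with HMGB2 knocked down by siRNA (HMGB2 KD) formed the last comparison. All groups therefore share the IMR90 background, but the labels give neither the isolate nor the control siRNA of WT, and no dose or duration of ICM. The titles list 2 replicates for each of the 7 groups, without saying whether they came from separate cultures, so the p-values below measure only the spread between these samples. The family was selected on its change between young and old cells, so the values of that comparison are given as a description without a test. The comparison of HMGB2 KD with WT did not draw attention to the family and was tested, although earlier results of these data were known.

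PSGs are secreted glycoproteins of the immunoglobulin superfamily and the closest relatives of the carcinoembryonic antigen (CEACAM) proteins. They are made mainly by the syncytiotrophoblast, the hormone-producing outer layer of the placenta, and reach the maternal blood in large amounts during pregnancy. PSG1, the best studied member, binds the latent form of TGF-beta1 and promotes its activation, interacts with integrins and heparan sulfate, and is linked to immune tolerance and blood vessel growth, and PSG9 shares the effect on latent TGF-beta1.

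All 10 members lie side by side on the minus strand of chromosome 19, in a stretch of 548 kb. Its coordinates are chr19:43225790-43773682 on GRCh37, the build that the study names for RNA-Seq. In ascending coordinates the order is PSG3, PSG8, PSG1, PSG6, PSG7, PSG11, PSG2, PSG5, PSG4 and PSG9. PSG10P, a transcribed pseudogene, and PSG8-AS1, an antisense RNA, sit between PSG8 and PSG1, and the antisense RNA PSG11-AS1 runs on the plus strand across PSG11, PSG2 and the lower end of PSG5.

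The near identity of the members bears on every value that follows, and the starts of their coding sequences show it. The first 60 coding bases of each member's reference transcript (GENCODE v44 lifted to GRCh37) lie within its first coding exon, at chr19:43709629-43709688 on the minus strand for PSG4 and at the matching place in the other genes. Capitals mark the bases that differ from PSG4.
PSG4: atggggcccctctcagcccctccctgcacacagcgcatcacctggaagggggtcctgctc
PSG5: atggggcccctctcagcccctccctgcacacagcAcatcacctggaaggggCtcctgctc
PSG1: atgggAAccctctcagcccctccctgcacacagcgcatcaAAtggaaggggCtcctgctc
PSG3: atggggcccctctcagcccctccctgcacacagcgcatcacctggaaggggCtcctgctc
PSG9: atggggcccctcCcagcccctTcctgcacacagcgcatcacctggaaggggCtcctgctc
PSG7: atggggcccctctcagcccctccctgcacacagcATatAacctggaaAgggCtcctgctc
PSG2: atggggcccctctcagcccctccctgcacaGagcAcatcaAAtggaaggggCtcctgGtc
PSG11: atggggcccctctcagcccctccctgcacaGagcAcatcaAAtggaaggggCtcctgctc
PSG6: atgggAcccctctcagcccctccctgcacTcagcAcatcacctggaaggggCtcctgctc
PSG8: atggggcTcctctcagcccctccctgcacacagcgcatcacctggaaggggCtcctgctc
Between 1 base (PSG3) and 6 bases (PSG2) of the 60 differed from PSG4. Over the whole coding sequence, the 45 pairs of members were between 85.2% (PSG5 with PSG11) and 95.5% (PSG1 with PSG8) identical, with a median of 93.1%.

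How far reads can be told apart was measured by cutting the coding sequences into stretches of 50 bases and asking which occur in no other PSG or CEACAM transcript. PSG4 was the most distinct member, with 77.4% of its stretches unique, followed by PSG9 with 77.0%, PSG5 with 71.7% and PSG7 with 71.6%. PSG1 (53.8%), PSG8 (54.4%), PSG2 (59.0%) and PSG3 (59.8%) were the least distinct. PSG1 shared 21.4% of its stretches with PSG8, and PSG2 shared 29.4% with PSG11. PSG9 was distinct in its coding sequence but, over all its annotated transcripts, shared 12.4% of its stretches with the pseudogene CEACAMP10, which overlaps it. In the old, young and ICM tables, whose counts are estimated or fractional, a read divided among members stays in the sum over the 10 members, and this sum is given beside the single genes. In WT and HMGB2 KD only uniquely assigned reads were counted, so the sum there lacks shared reads and its level is not directly comparable with the other tables.

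Because the members moved together between young and old cells, the bases before their starts were also compared. RefSeq promoters (GRCh38.p14) were at hand for 3 of the 10 members, PSG3, PSG4 and PSG5. The 250 bases before each start matched GRCh37 exactly and at 1 place only, at chr19:43709791-43710040 for PSG4, chr19:43690689-43690938 for PSG5 and chr19:43244634-43244883 for PSG3, all on the minus strand. They are printed 5′ to 3′ with 2 motifs in capitals, CCCCGCCC and CCCCACCC, searched on both strands.
PSG4: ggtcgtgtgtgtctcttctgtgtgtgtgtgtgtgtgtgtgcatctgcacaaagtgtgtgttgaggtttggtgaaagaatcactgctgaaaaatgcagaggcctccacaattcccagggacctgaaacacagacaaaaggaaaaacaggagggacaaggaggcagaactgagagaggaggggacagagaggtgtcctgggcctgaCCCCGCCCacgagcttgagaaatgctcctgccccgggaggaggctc
PSG5: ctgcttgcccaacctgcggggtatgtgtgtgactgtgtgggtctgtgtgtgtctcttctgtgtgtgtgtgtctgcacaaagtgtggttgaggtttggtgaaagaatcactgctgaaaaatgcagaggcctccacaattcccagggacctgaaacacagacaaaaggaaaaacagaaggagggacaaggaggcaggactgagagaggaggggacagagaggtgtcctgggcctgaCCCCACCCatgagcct
PSG3: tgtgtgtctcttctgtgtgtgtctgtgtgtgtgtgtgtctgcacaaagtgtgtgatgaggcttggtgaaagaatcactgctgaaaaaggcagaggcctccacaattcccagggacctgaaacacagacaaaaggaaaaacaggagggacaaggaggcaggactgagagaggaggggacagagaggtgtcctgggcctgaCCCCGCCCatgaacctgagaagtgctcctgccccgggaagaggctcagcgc
PSG4 and PSG3 each held CCCCGCCC, 46 and 51 bases before the start, and PSG5 held CCCCACCC 16 bases before its start. Of 35116 RefSeq promoters, 21.8% held the former within the same 250 bases and 10.4% the latter. Such GC- and GT-rich boxes are the kind that SP and KLF factors bind, but a match describes letters only. The aligned parts of these promoters were 95.1% (PSG3 with PSG4), 96.3% (PSG3 with PSG5) and 98.1% (PSG4 with PSG5) identical.

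The tables differ in how they were made, and this limits what can be set side by side. For each old and young group the authors deposited 1 column of estimated counts per transcript, which either pools the replicates or holds 1 of them, so these values carry no SD and their 95% intervals (exact Clopper-Pearson on the counts) cover counting error only. The ICM tables give reads per gene for each of 2 libraries. Many values are fractional, which is taken here to mark shared reads, although their handling is not stated. WT and HMGB2 KD have raw gene counts for 2 libraries each, of uniquely assigned reads. Depth was between 14991385 and 20632959 estimated counts for the old and young columns, 13290131 and 10971132 reads for ICM, and between 33561766 and 41168932 counts for WT and HMGB2 KD. Levels are given as CPM, each count divided by all gene counts of its table or library and scaled to the usual common total. CPM and shares of counts do not account for length when genes are compared. TPM does, and is given for the old and young columns only. All 12 fibroblast markers examined were present in every table, with summed levels between 13021 and 36573 CPM, and HMGB2 fell from 27.2 ± 0.15 CPM in WT to 3.43 ± 0.29 CPM in HMGB2 KD (SD, n = 2 each; log2 fold change -2.99, edgeR adjusted p = 8.28e-07).

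Young fibroblasts already carried a low level of PSG transcripts. The family summed to 17.9 CPM in I79 young and 16.5 CPM in I10 young. The WT libraries, which are not labelled as young and hold uniquely assigned reads only, gave 17.9 and 20.9 CPM. PSG4 took most of these counts, with 14.1 and 12.3 CPM in young I79 and I10 cells and 13.3 and 15.4 CPM in WT. PSG5 stood at 2.66 and 3.11 CPM in the young columns and at 3.64 and 4.53 CPM in WT. The other 8 members together added little, and PSG2, PSG8 and PSG11 had no count in either young column, which allows up to 3 counts each. The 2 isolates were alike in this state within counting error, at a family ratio of I79 young to I10 young of 1.09 (95% interval 0.919 to 1.29). For each of the 6 members with more than 3 counts in at least 1 of these columns, the interval of the ratio contains 1.

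In old cells the family sum reached 470 CPM in I79 and 329 CPM in I10. This was 26.2 times the young level in I79 (95% counting interval 23.2 to 29.7) and 19.9 times in I10 (17.8 to 22.4). The deposited TPM values, which account for transcript length, gave the same picture, with 19.3 TPM in both young columns against 549 TPM in I79 old and 414 TPM in I10 old. In bulk samples, more cells that express a gene and more RNA of it per cell cannot be told apart.

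All 10 members were above young by more than 0.6 on the log2 scale in I79 (19.6% of 16417 genes were), and 6 of them by more than 4 (0.731% were). In I10, 8 members had 10 or more counts over both columns, and all 8 were higher by more than 0.6 (13.8% of 16455 genes) and 4 by more than 4 (0.346%). PSG1, PSG3, PSG4 and PSG9 passed 4 in both isolates, as did 0.234% of the 15795 genes compared in both. The median log2 ratio over the members was 4.30 in I79 and 4.12 in I10, beside -0.15 and -0.27 over all genes, with a young count of 0 set to 3 counts. Since this contrast drew attention to the family, nothing is read from these counts.

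PSG4 was the most abundant member in old cells per unit of length, at 336 TPM in I79 old and 307 TPM in I10 old. Its estimated counts went from 212 to 5446 in I79 and from 225 to 4987 in I10. The ratios were nearly equal, 19.4 (16.9 to 22.4) in I79 and 19.6 (17.1 to 22.5) in I10. The intervals of the isolates overlap almost fully for this gene.

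PSG5 came second, at 117 TPM in I79 old and 66.4 TPM in I10 old. Its estimated counts went from 40 to 1843 in I79, a 35.0-fold ratio (25.5 to 48.9), and from 57 to 989 in I10, a 15.4-fold ratio (11.7 to 20.4). The counting intervals of the 2 ratios do not overlap.

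PSG1, the member tied to latent TGF-beta1, showed the largest ratio of the members that had a young count. In I79 its estimated counts went from 6 to 1567, a 192-fold ratio, but so few young counts leave an interval from 90.5 to 539. In I10 it went from 5 to 414, a 73.3-fold ratio (31.1 to 227). At 70.2 TPM in I79 old and 19.1 TPM in I10 old it ranked behind PSG4 and PSG5 in both isolates.

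PSG9, which also acts on latent TGF-beta1, went from 4 to 127 estimated counts in I79 (24.0-fold, 9.15 to 89.4) and from 2 to 82 in I10 (36.3-fold, 9.72 to 304). PSG3 went from 2 to 138 and from 6 to 164, PSG7 from 4 to 79 and from 5 to 79, and PSG6 from 1 to 14 and from 1 to 13. The roles of these 3 are less well described. Their ratios in I79 were 52.0 (14.2 to 435) for PSG3, 14.9 (5.61 to 56.1) for PSG7 and 10.2 (1.61 to 447) for PSG6. In I10 they were 24.1 (10.9 to 66.8), 14.0 (5.74 to 44.2) and 11.8 (1.73 to 489).

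The last 3 members had no young count in either isolate. PSG2 had 79 estimated counts in I79 old and 42 in I10 old, at least 20.0-fold and 12.3-fold above the 3 counts that a count of 0 allows in a column. PSG11 had 18 and 9, at least 4.48-fold and 2.73-fold higher. PSG8 had 11 in I79 old, at least 2.85-fold higher, and 2.9 in I10 old, under that limit, so no ratio is given.

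**Figure D1:**
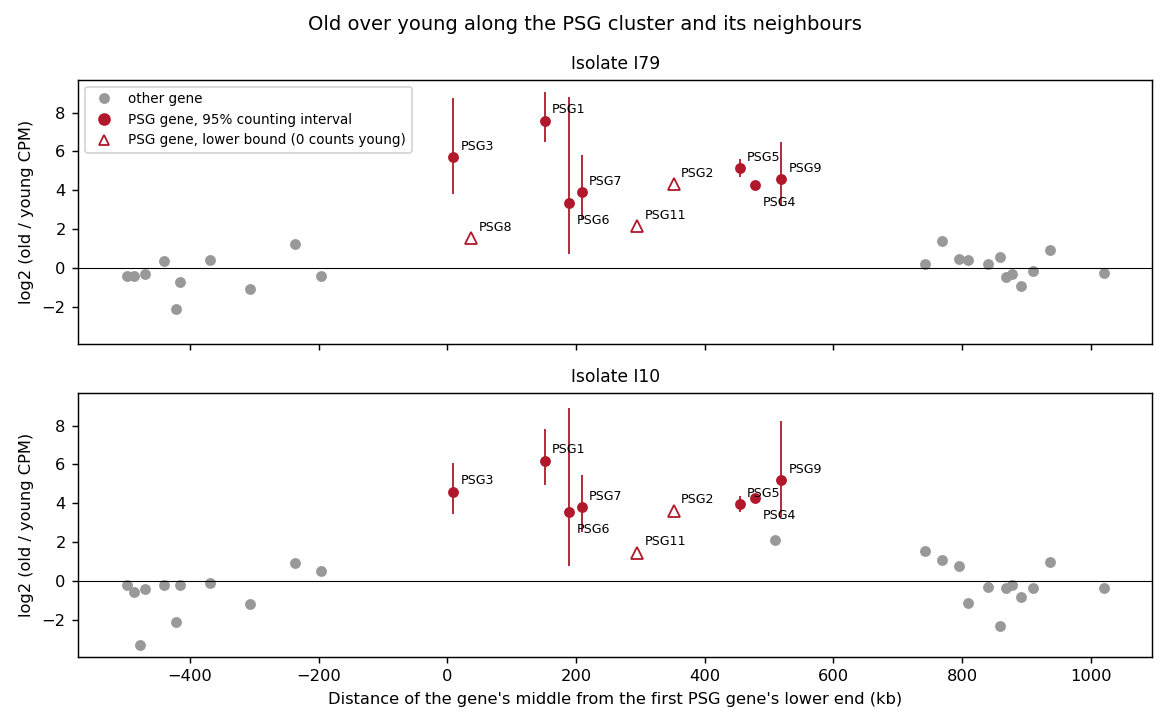
Log2 ratio of old to young CPM against the distance of each gene's middle from the lower end of the PSG cluster (kb), for isolate I79 (top) and I10 (bottom). Red points are PSG genes with 95% counting intervals, and open triangles are lower bounds for PSG genes with no young count. Grey points are other genes within 500 kb, except the antisense RNA PSG11-AS1 (2.26 in I79, at least 2.05 in I10), which is not drawn. The PSG genes stand between 1.45 and 7.58, while no flanking protein-coding gene passes 1.56.

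The 4 members that passed a log2 ratio of 4 in both isolates did not all lie together, since PSG1 and PSG3 are in the lower part of the cluster and PSG4 and PSG9 in the upper part. Genes around the cluster were also examined. Of 63 annotated genes within 500 kb that are not members, 61 were listed and 23 had enough counts in both isolates. Among these, 4 were higher in old cells by more than 0.6 in both isolates (10.1% of 15795 genes were) and 3 were lower by as much (19.9% were). PLAUR, the urokinase receptor, went in I79 from 34.4 to 65.3 CPM and in I10 from 39.0 to 75.1 CPM, and PHLDB3 from 4.00 to 10.6 and from 3.51 to 7.32 CPM. The other 2 that were higher were PSG11-AS1 and a processed pseudogene. PAFAH1B3, a subunit of a platelet-activating factor hydrolase, went down from 27.4 to 6.35 CPM and from 27.9 to 6.40 CPM. None of the genes around the cluster passed a log2 ratio of 4.

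Within the cluster, the noncoding genes gave few reads. PSG11-AS1 went from 3 to 19 estimated counts in I79 (4.79-fold, 1.41 to 25.3) and from 0 to 14 in I10 (at least 4.13-fold). PSG8-AS1 had 4 counts in I79 old and 1 in I10 old, and the pseudogene PSG10P had none in any old or young column. The kit's strand setting for these columns is not stated, and PSG11-AS1 overlaps PSG11, PSG2 and PSG5 in part, so reads of the antisense gene and its partners may not be separated.

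The isolates differed in old cells for some members and not for others. PSG1 was 3.93 times higher in I79 old than in I10 old (3.53 to 4.40), PSG2 1.98 times (1.33 to 2.92), PSG5 1.94 times (1.79 to 2.10) and PSG9 1.61 times (1.21 to 2.15). PSG4 differed by a factor of 1.14 only (1.09 to 1.18). PSG3, PSG6, PSG7 and PSG11 had intervals that contain 1, and PSG8 was 4.06 times higher with an interval from 1.01 to 21.3. The family as a whole stood 1.43 times higher in I79 old (1.39 to 1.48), and 1.27 times without PSG1. These intervals hold no spread between replicates, so the isolates' difference was not tested.

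The make-up of the family shifted accordingly. By TPM, PSG4 took 72.0% of the family in I79 young and 61.2% in I79 old, while PSG1 went from 2.77% to 12.8% and PSG5 stayed at 21.5% and 21.3%. In I10, PSG4 took 71.0% in young and 74.3% in old cells, PSG1 2.29% and 4.62%, and PSG5 23.0% and 16.1%. In counts, PSG4 took 78.8% and 58.4% in I79 and 74.8% and 73.5% in I10.

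**Figure D2:**
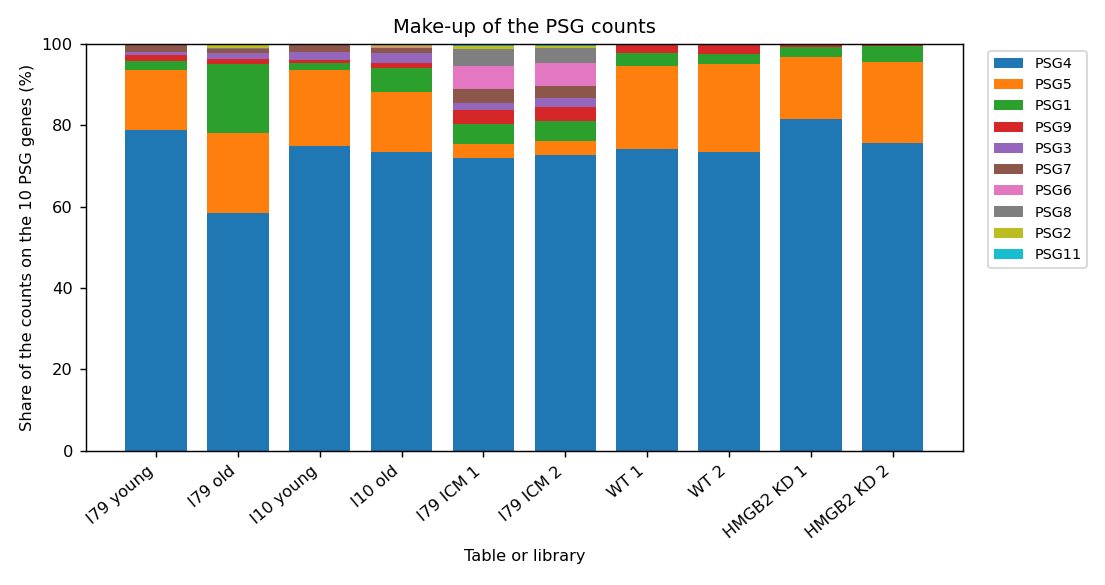
Share (%) of the counts on the 10 PSG genes that each gene took, with 1 stacked bar per table or library. PSG4 takes between 58.4% and 81.4% in every bar, PSG1 takes 16.8% in I79 old, and the ICM bars differ from all others by a PSG5 share of 3.43% to 3.63% and by visible shares of PSG6 and PSG8.

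The old and young tables also give the transcript behind each count. PSG4-202, the reference protein-coding transcript, took 57.7% of the PSG4 counts in I79 old and 59.1% in I10 old, followed by PSG4-205, an intron-retaining transcript, with 14.3% and 13.5%. PSG5-201 took 54.8% and 50.1% of PSG5. PSG1-204 took 69.0% and 60.7% of PSG1, that is 1082 estimated counts in I79 old and 252 in I10 old.

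Some of the lesser members were counted almost wholly on transcripts annotated as retaining an intron. PSG3 had 137 of its 138 estimated counts in I79 old on PSG3-205 (99.3%) and 155 of 164 in I10 old (94.5%), and none on a protein-coding transcript. For PSG7 the share on such transcripts was 70.3% and 74.6%, for PSG9 43.4% and 75.2%, and for PSG11 67.3% and 89.2%. PSG8 had no count on a protein-coding transcript either. PSG6 had 31.1% and 28.0% on such transcripts and PSG4, the main member, 21.0% and 22.7%. PSG1 had 4.07% and 9.15% and PSG5 4.79% and 7.46%, and PSG2 had none.

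Over the family, intron-retaining transcripts took 16.8% of the counts of both I79 columns, 16.5% of those of I10 young and 22.6% of those of I10 old. Over the summed counts of all protein-coding genes, in which highly expressed genes weigh most, the share was between 3.14% and 3.34% in the 4 columns. The number of intron-retaining transcripts annotated for each gene was not taken into account. PSG4 supplied 1141 of the 1566 estimated counts on intron-retaining transcripts of the family in I79 old and 1134 of 1536 in I10 old. A share above that of the summed counts was seen in the young columns as well as in the old. Transcript counts of near-identical genes are estimates, and the split was not checked against reads.

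**Figure D3:**
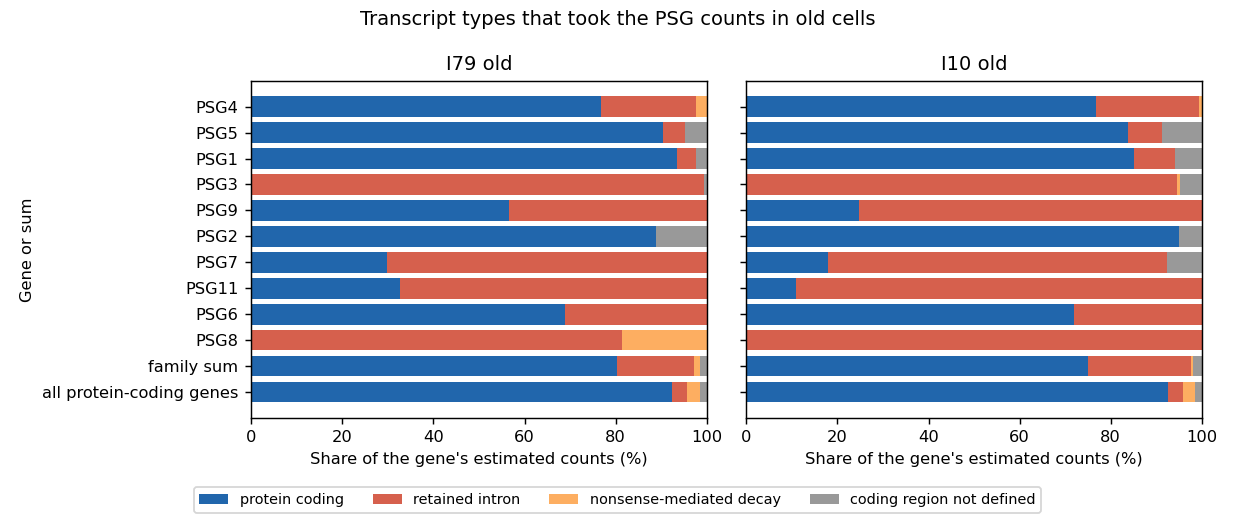
Share (%) of each PSG gene's estimated counts in I79 old (left) and I10 old (right) on transcripts annotated as protein coding, retained intron, nonsense-mediated decay or without a defined coding region, with the family sum and all protein-coding genes below. PSG3 and PSG8 carry no protein-coding share, and PSG4, PSG5, PSG1 and PSG2 are mostly protein coding. The family's retained-intron share (16.8% and 22.6%) exceeds that of the summed counts of all protein-coding genes (3.25% and 3.14%).

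Whether the family differs between WT and HMGB2 KD was tested next. HMGB2 is a chromatin protein whose loss marks entry into senescence. After TMM scaling the family summed to 17.6 and 20.4 CPM in the WT libraries and to 19.7 and 20.3 CPM with HMGB2 knocked down. The knockdown libraries thus lie inside the range of WT. The log2 fold change was 0.07 (SE 0.14, 95% interval -0.23 to 0.38).

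Of the 10 members, 4 had enough counts to be tested (PSG1, PSG4, PSG5 and PSG9), and none was called at an adjusted p under 0.01 with an absolute log2 fold change over 0.6 (edgeR quasi-likelihood test, 2 against 2), while 5.20% of the 15338 genes tested were. At an unadjusted p under 0.05, 1 of the 4 passed (PSG9), as did 23.9% of all genes tested, and DESeq2 called none of the 2 members for which it gave an adjusted p. PSG4 had raw counts of 446 and 560 in WT and of 588 and 613 in HMGB2 KD. Scaled, this was 14.0 ± 1.39 against 15.7 ± 0.49 CPM (SD, n = 2 each), a log2 fold change of 0.16 (95% interval -0.16 to 0.49, edgeR adjusted p = 0.576). PSG5 had 122 and 165 counts in WT and 111 and 161 in HMGB2 KD, with overlapping libraries after scaling and a log2 fold change of -0.17 (-0.75 to 0.40, edgeR adjusted p = 0.766).

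PSG1 had 19 and 19 counts in WT and 18 and 31 in HMGB2 KD. Its log2 fold change of 0.26 carries an interval from -0.96 to 1.48 (edgeR adjusted p = 0.845), so a change of up to that size could not be seen at these counts. PSG9 had 12 and 19 counts in WT and 4 and 4 in HMGB2 KD. All WT libraries lay above all HMGB2 KD libraries, at 0.43 ± 0.11 against 0.105 ± 0.0063 CPM (SD, n = 2 each). The log2 fold change of -2.01 (-3.73 to -0.28, edgeR adjusted p = 0.137) did not pass. After scaling, the ranges of both groups were separate for 2 of the 4 tested members, PSG9 (lower) and PSG4 (higher), and for 53.8% of all genes tested.

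The remaining 6 members had between 0 and 1 count in each of these libraries. PSG3, PSG8 and PSG11 had none in any of the 4, PSG2 and PSG6 had 1 in the first WT library, and PSG7 had 1 in the first HMGB2 KD library. A count of 0 in libraries of this depth allows up to 3 counts. Uniquely assigned reads were counted here, and between 7.15% and 7.67% of the rows' totals were set aside as not unique, so members with few unique stretches can be undercounted. The part of this in the zeros was not tested.

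**Figure D4:**
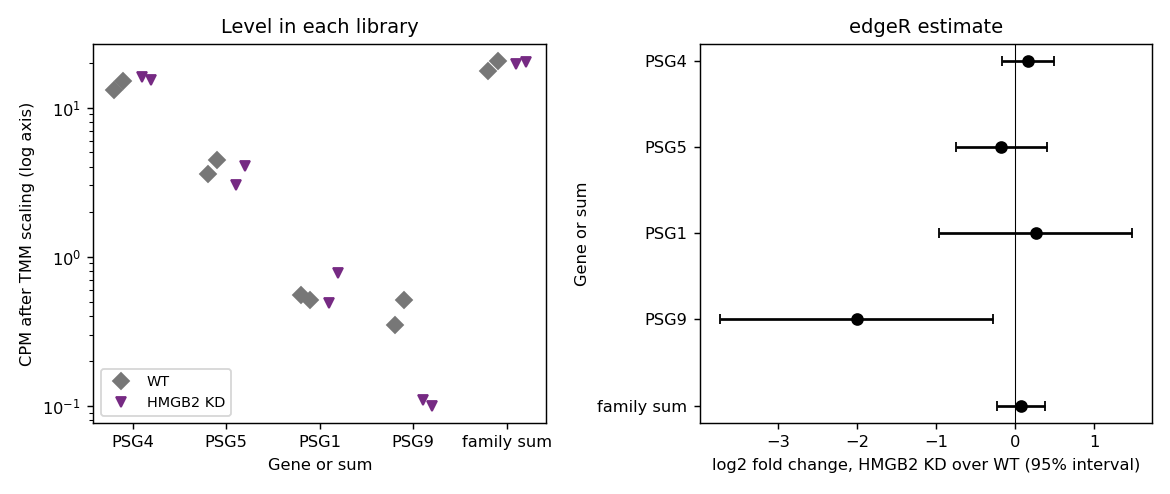
Left, CPM after TMM scaling (log axis) of the 4 tested PSG genes and of the family sum in each WT (diamonds) and HMGB2 KD (triangles) library; right, log2 fold change of HMGB2 KD over WT with its 95% interval from edgeR. All intervals but that of PSG9 (-3.73 to -0.28) include 0, and PSG4 and the family sum stay within 0.49 of it.

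ICM-treated cells stood between young and old I79 cells for the family sum. Their libraries gave 73.9 and 74.8 CPM, and over the genes that both kinds of table list, 75.8 ± 0.64 CPM (SD, n = 2) against 19.4 CPM in I79 young, a ratio of 3.91. PSG4 carried most of this, with 706 and 596 reads, 54.8 ± 0.91 CPM against 15.3 CPM in I79 young, a ratio of 3.59. The ICM tables came from another library type and another counting, and the same I79 young column serves in the ratio of old to young, so these ratios are descriptions and no test was made.

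PSG5 had a lower ratio than PSG4 in this comparison, though the part of reads of other members in either value was not tested. It had 36 and 28 reads, or 2.68 ± 0.083 CPM against 2.87 CPM in I79 young, a ratio of 0.93, whereas it was 35.0 times higher in I79 old. Its share of the family counts was 3.63% and 3.43% in ICM, under the 14.6% to 21.6% of every other table. PSG1, with 47 and 40 reads, was at 8.21 times I79 young, PSG7 at 8.26 times and PSG9 at 9.07 times, each from 4 to 6 young counts.

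Several members that were near absent elsewhere had reads after ICM. PSG6 had 57 and 46 reads and PSG8 42 and 30, at 4.26 and 4.18 CPM and at 3.15 and 2.70 CPM. In I79 old these genes had 0.682 and 0.57 CPM, so ICM libraries lie above old cells for both. PSG8, without a count in I79 young, was at least 13.8-fold higher, PSG2 at least 1.91-fold and PSG11 at least 1.97-fold, and PSG10P was listed at 11.3 and 11.5 reads. Of 9 members with 10 or more counts, 8 were above I79 young by more than 0.6 on the log2 scale, as were 33.2% of 15495 genes. The median of the 9 was 3.05, beside 0.04 over all genes.

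Nearly all members had fractional totals behind these values. The total was fractional, which is taken to mark reads split between genes, for 9 of 10 members in the first ICM library and for all 10 in the second. Of all genes with reads, 37.8% and 37.6% had a fractional total. A fractional total does not measure how many of a gene's reads were shared. All PSG6 reads and between 98.2% and 100% of PSG3 reads were assigned to the coding region, where the members are nearly identical. For PSG5 the coding share was 76.6% and 84.6%, and for PSG9 it was 86.8% and 95.9%. For PSG4 the coding share was 56.2% and 54.5%, and for the family 61.5% and 60.5%, near the 61.1% and 61.9% of all genes. How much of the level of PSG6, PSG8, PSG3, PSG5, PSG9 or any other single member is reads of other members was not tested. Division among members leaves the sum as it is.

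Levels of the different kinds of table were counted in different ways, so the orders below are descriptions only and were not tested. Across all groups, the order of PSG4 levels ran from I79 old (275 CPM) and I10 old (242 CPM) to ICM (53.1 and 54.4 CPM). A lower set was made up of HMGB2 KD (15.8 and 14.9 CPM), WT (13.3 and 15.4 CPM), I79 young (14.1 CPM) and I10 young (12.3 CPM). Within the lower set, HMGB2 KD and WT overlap before TMM scaling, and the young isolates differ by less than counting error. I79 young lies inside the range of WT, but WT holds uniquely assigned reads only, so these levels are not directly comparable. For PSG5 the order was I79 old (92.9 CPM), I10 old (47.9 CPM) and then WT, HMGB2 KD, the young columns and ICM between 2.57 and 4.53 CPM, without a gap between groups. PSG1 kept the order of PSG4 for old cells and ICM (79, 20.1, and 3.51 and 3.66 CPM), with every other table under 1 CPM.

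The 5 genes whose changes within each kind of table ran most like those of the family sum were found among 38319 genes. The measure was Euclidean distance of log2(CPM + 1), centred within each kind of table. It covered the 4 old and young columns and the 4 WT and HMGB2 KD libraries. The 5 genes were PNMA2 (distance 0.593), CCND2 (0.597), TMEM178B (0.671), A2M (0.873) and IGFBP3 (0.880). Centring removes differences in level between kinds of table. A2M stood at 1.27 and 0.438 CPM in I79 young and I10 young, but at 177 and 196 CPM in WT. PNMA2, a paraneoplastic Ma antigen gene, went in I79 from 0.602 to 29.9 CPM and in I10 from 0.712 to 20.7 CPM. CCND2, which encodes cyclin D2, went from 1.07 to 62.3 and from 1.42 to 38.0 CPM. IGFBP3, an insulin-like growth factor binding protein, went from 150 to 2579 and from 118 to 1911 CPM. ICM libraries were not used in the distance, and there CCND2 stood at 14.7 and 14.1 CPM and PNMA2 at 4.41 and 4.24 CPM.

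Other placental genes went in both directions. Of a list of 44 trophoblast and placental hormone genes, 12 had enough counts in both isolates, and 4 of these were higher and 5 lower by more than 0.6 in both, beside 10.1% and 19.9% of all 15795 genes compared. KISS1, which encodes kisspeptin, went in I79 from 0.60 to 65.1 CPM and in I10 from 0.274 to 12.8 CPM, and TAC3, which encodes neurokinin B, from 0.60 to 5.75 and from 0.274 to 4.80 CPM. HSD17B1, an estradiol-forming enzyme, and the factor TFAP2A were the other 2 that were higher. ERVW-1 (syncytin-1), KRT7, ADAM12, SDC1 and GATA2 were lower. The 13 trophoblast markers summed to between 1.26 and 21.9 CPM over all tables, with between 6 and 9 of them at 0, and in the old columns they summed to 1.26 and 1.96 CPM against 5.23 and 4.78 CPM in the young columns. CGA, the shared subunit of the placental gonadotropin, had 1 estimated count in I79 old and none in I10 old.

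In HMGB2 KD, 15 of these 44 genes were tested, none was higher (2.86% of all tested genes were) and 3 were lower (2.34% were). CGA fell, with its WT libraries at 9.77 and 4.91 CPM and its knockdown libraries at 2.26 and 1.07 CPM (log2 fold change -2.08, edgeR adjusted p = 0.00251), and PAPPA and PEG10, a metalloproteinase and a retrotransposon-derived gene of the placenta, fell by 0.78 and fell by 1.58 on the log2 scale. In ICM libraries CYP19A1, the aromatase gene, stood at 16.9 and 19.3 CPM and HLA-G, which has near-identical relatives of its own, at 15.2 and 12.9 CPM, while both had no count in I79 young and in I79 old. Their part in the PSG values was not tested.

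The family's relatives gave little. Of 12 CEACAM genes, CEACAM19 alone was tested. It was higher in old cells of both isolates (8.54 to 19.6 CPM and 8.19 to 17.5 CPM) and fell in HMGB2 KD (log2 fold change -0.79, edgeR adjusted p = 0.0097).

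Of 22 genes for the partners of PSG1 and for the TGF-beta axis, all had enough counts for a ratio in both isolates. In old cells of both, 5 were higher and 3 lower by more than 0.6, beside 10.1% and 19.9% of all genes compared. CD9, a tetraspanin that binds PSGs in the mouse, went in I79 from 24.4 to 125 CPM and in I10 from 32.7 to 133 CPM, and the heparan sulfate proteoglycan gene GPC1 from 200.3 to 456 and from 180 to 390 CPM, while TGFB2 went down from 92.1 to 28.3 and from 83.4 to 41.4 CPM. TGFB1 itself was at 98.9 and 88.3 CPM in young and old I79 cells. In HMGB2 KD, 8 of 21 tested rose (2.86% of all tested genes did) and none fell (2.34% did), namely TGFB1, LTBP2, ITGA5, ITGB3, CD9, SDC2, SDC3 and GPC1. TGFB1 rose, with its WT libraries at 134 and 137 CPM and its knockdown libraries at 237 and 315 CPM (log2 fold change 1.09, SE 0.16).

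Among 9 transcription factors known from PSG promoters (among them SP1, KLF6 and retinoid receptors), none was higher in both isolates and RARB alone was lower (19.9% of all genes were), from 1.07 CPM in I79 young and 0.987 CPM in I10 young to 0 and 0.145 CPM in old cells. SP1 was between 87.3 and 105 CPM in the old and young columns, and KLF6 between 84.8 and 117 CPM. In HMGB2 KD, 1 of 8 tested was called higher (2.86% of all tested genes were), KLF6 at a log2 fold change of 0.62 (SE 0.14).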

How the data were processed

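Poly(A)-selected RNA of IMR90 cells was measured in 14 samples of 7 groups, grouped by the sample titles. Per the methods of the study, reads were mapped to hg19 (GRCh37) with STAR (2.6.0c in the submitters' processing notes) and unique reads counted with featureCounts. The WT and HMGB2 KD tables hold raw counts per gene, as deposited, and end with summary rows in the layout of another counter. Which counter made these tables is therefore uncertain, and the use of strand is not given in the sources used here. These rows (16.9% to 18.0% of the totals) stayed out. For the old and young groups the authors deposited estimated counts and TPM per transcript, 1 column a group, by a tool not given in the sources used here. Transcripts were summed to genes through GENCODE v44 lifted to GRCh37, which matched 97.7% of transcript IDs. For ICM the deposited estimated counts are reads per gene and transcript region, from short reads processed by a company. Their genome build and the handling of shared reads are not given in the sources used here. No column of another series was used.

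HMGB2 KD was tested against WT with edgeR 4.0.16 (R 4.3.3), using TMM scaling, genes kept by filterByExpr and the quasi-likelihood test. A call needed a Benjamini-Hochberg adjusted p under 0.01 with a log2 fold change beyond 0.6 either way. The SE was the log2 fold change divided by the square root of F. The test was tried on simulated data before use. DESeq2 1.42.0 was an alternative. Old, young and ICM values were described by ratios of CPM, with 95% exact Clopper-Pearson intervals and a floor of 3 counts for a count of 0. Counts and medians over genes used those with 10 or more counts over both columns, while a member's own ratio or bound is given where either column exceeds the floor. Intervals and floors cover counting error only, not spread between replicates or the split of reads among near-identical genes. Reads carry no molecular identifiers, so repeated reads of the same molecule are not covered either. RPKM values were not used. The members and gene lists were chosen with earlier results of these data known. The genes named are all members, the other genes of the cluster, list members that were called or, where none was, the 3 most abundant, and the 5 nearest by distance; ERVW-1, HSD17B1, TFAP2A, KISS1, TAC3 and further genes below these ranks were named after their values were seen.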

Additional observations from a re-analysis of the deposited data

How the results depend on the processing

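In HMGB2 KD no member was called under any of 10 alternatives (DESeq2 size factors, library totals alone, no filter on low counts, DESeq2, an adjusted p under 0.05, the replicate block, and each library left out). The fit without the filter tested 7 members and called 1175 genes, and an adjusted p under 0.05 called 1187. Replicate numbers of WT and HMGB2 KD come from the titles with no shared batch, and the deviations of the 2 pairs correlate at 0.124, which in 2 pairs does not settle whether the numbers pair the samples. With the replicate block 1243 genes were called in place of 797, the family's log2 fold change was 0.078 and 0 members were called. Leaving out each library in turn moved it between -0.03 and 0.18, and it is -0.03 only without WT replicate 1. The count of genes called then ranged from 312, without the second HMGB2 KD library, to 999, without the first.

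The log2 ratio of the family in I79 (4.71) was 4.48 without PSG1 and lay between 4.68 and 4.88 under TMM scaling, deposited TPM, a prior count of 2, PSG10P added and, chosen after seeing the data, protein-coding transcripts alone. In I10 (4.32) it was 4.58 under TMM scaling and between 4.19 and 4.42 under the others. For ICM against I79 young (1.97) it was 1.88 on coding and noncoding reads alone, 1.89 with WT as control, 1.99 with PSG10P, 2.05 on CPM over all genes and, chosen after seeing the data, 1.84 for PSG4 alone, and between 1.96 and 1.98 with each ICM library left out. No direction changed in the old and ICM comparisons. Counts limit PSG2, PSG6, PSG8 and PSG11, and all members but PSG4 and PSG5 in WT and HMGB2 KD. Few young counts also limit the ratios of PSG1, PSG3, PSG7 and PSG9 to young cells.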
